A study of Homo sapiens with 8 samples.

Results

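Interleukins are secreted proteins that carry signals between cells, and their receptors are assembled from 2 or more membrane chains. The genes described here were those whose symbol begins with IL and a digit, leaving out IL8, and 89 of the 22257 gene symbols in the count table met that rule. By role they were 40 interleukin ligands, 36 receptor chains, 6 antagonists, decoys or binding proteins, 3 type III interferons listed under their older IL symbols (IL28A, IL28B and IL29), 3 receptor-like genes and the enzyme gene IL4I1. Where a symbol had several transcript rows, the row with the most reads was taken.

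RNA sequencing was done on RD-ES, a human cell line from Ewing sarcoma, a bone and soft tissue tumour. All samples carried a stably introduced USP6 gene, a deubiquitinase oncogene, under a doxycycline-driven promoter, in a pool of cells and not in a clone. The study asked how USP6, interferon alpha, and the combination alter gene induction. There were 2 libraries in each of 4 groups: doxycycline with interferon (doxycycline for 24 h, then interferon alpha at 1000 U/mL for 24 h), doxycycline alone, interferon alone (1000 U/mL for 24 h), and untreated. The time on doxycycline without interferon is not stated. Every group carried the transgene, and doxycycline-treated cells without it were not analysed here, so the effects of doxycycline and of USP6 cannot be told apart. No label says that replicates were separate cultures, so the p-values measure the spread between these libraries, which may be technical.

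Most interleukin receptors act through Janus kinases and STAT transcription factors, while those of the interleukin 1 and interleukin 17 families act through adaptor proteins and NF-kB. Receptor chains are shared: IL6ST serves the interleukin 6 family, IL2RG serves the interleukins 2, 4, 7, 15 and 21, IL10RB serves interleukin 10 relatives and type III interferons, and IL1RAP serves interleukin 1 relatives. Interferon alpha signals through STAT factors, STAT2 among them, to genes that carry an interferon-stimulated response element. Lymphocytes and macrophages are the classical sources of interleukins, but tumour and stromal cells make some of them.

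The libraries held 9304569 to 11984196 reads. USP6, the check of the labels, had 4057 and 3471 reads with doxycycline and interferon, 6816 and 6567 with doxycycline, 92 and 108 with interferon, and 104 and 98 in untreated cells. All 11 Ewing sarcoma markers looked up had at least 100 reads, and their summed level lay between 2789 and 3970 CPM (counts scaled to library size). Of these markers CCND1 and CAV1 had the highest means over the 8 libraries, 1273 and 1033 CPM, while NR0B1 had 7.71 and CD99 2.59 CPM. Summed markers of T, B and NK cells lay between 9.01 and 14.6 CPM, with CD2 at 0, and those of monocytes and macrophages between 5.09 and 7.66 CPM, with TYROBP at 0. Libraries differed in how their levels followed the GC content of the transcript: across genes, which are not independent, the Spearman correlation ran between -0.635 in doxycycline with interferon replicate 1 and 0.579 in untreated replicate 1. Its part in the results was not tested, but values corrected for GC content and transcript length are given where they alter a call. In RNA from whole cultures, fewer cells making a transcript and less of it per cell cannot be told apart.

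Of the reads of these 89 genes, the 36 receptor chains held 96.7% and the 40 ligands 1.41%. IL1RAP alone had 46195 and IL6ST 18853 of the 83591 receptor reads. No read was found for 14 of the 89 genes, among them IL2, IL3, IL9 and IL17A, and another 32 had 1 to 9 reads over all 8 libraries. The filter on low counts left 33 for testing, 23 receptor chains, 7 ligands, IL18BP, the receptor-like gene IL1RAPL2 and IL4I1, and the other 56 are described by reads. Per kilobase of transcript, IL1RAP stood highest with a mean level over the 8 libraries of 242 CPM per kilobase. It is the accessory chain of the interleukin 1, 33 and 36 receptors and a surface protein described in Ewing sarcoma. With the longest annotated transcript in place of the counted one its level was 100.5 CPM per kilobase and it remained first. IL6ST followed at 24.6, IL10RB at 17.0, IL13RA1 at 15.0 and IL11RA, the interleukin 11 receptor chain, at 12.5 CPM per kilobase. IL32, the highest ligand, had a level of 4.53 CPM per kilobase. The other tested ligands had levels between 0.212 CPM per kilobase for IL16 and 1.36 for IL23A.

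**Figure D1:**
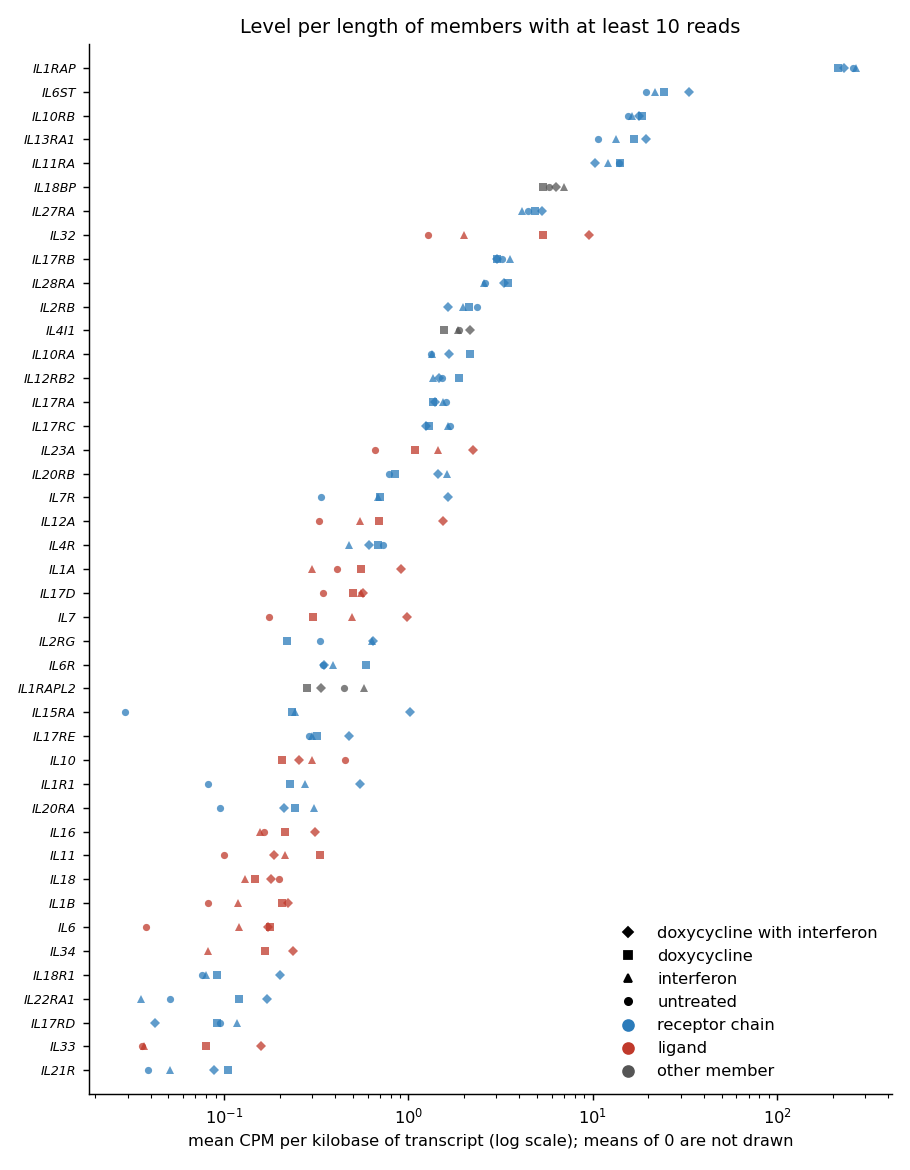
Mean level in each group, in CPM per kilobase of transcript on a log axis, of the interleukin-named genes with at least 10 reads, ordered by the mean over all 8 libraries. Shapes mark the 4 groups and colours the roles; IL1RAP lies alone at the top (mean 242 CPM per kilobase), and IL32 is the highest ligand (4.53).

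Doxycycline with interferon against untreated cells gave the largest set of changes. Of the 33 tested genes, 9 rose and 0 fell at an adjusted p under 0.05, where 13.9% of all 14601 tested genes were called and 7.12% were called higher. The 9 were 4 of 7 tested ligands (IL32, IL7, IL12A and IL23A) and 5 of 23 tested receptor chains (IL15RA, IL1R1, IL7R, IL13RA1 and IL6ST). The median log2 fold change was 0.33 over the 33 genes and -0.02 over all genes tested. Tests were edgeR's quasi-likelihood F test with Benjamini-Hochberg adjustment over all genes, and errors of log2 fold changes are standard errors. IL15RA, IL12A and IL7 entered the test because the libraries with doxycycline and interferon reached the filter, so a count over tested genes is not independent of that difference.

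**Figure D2:**
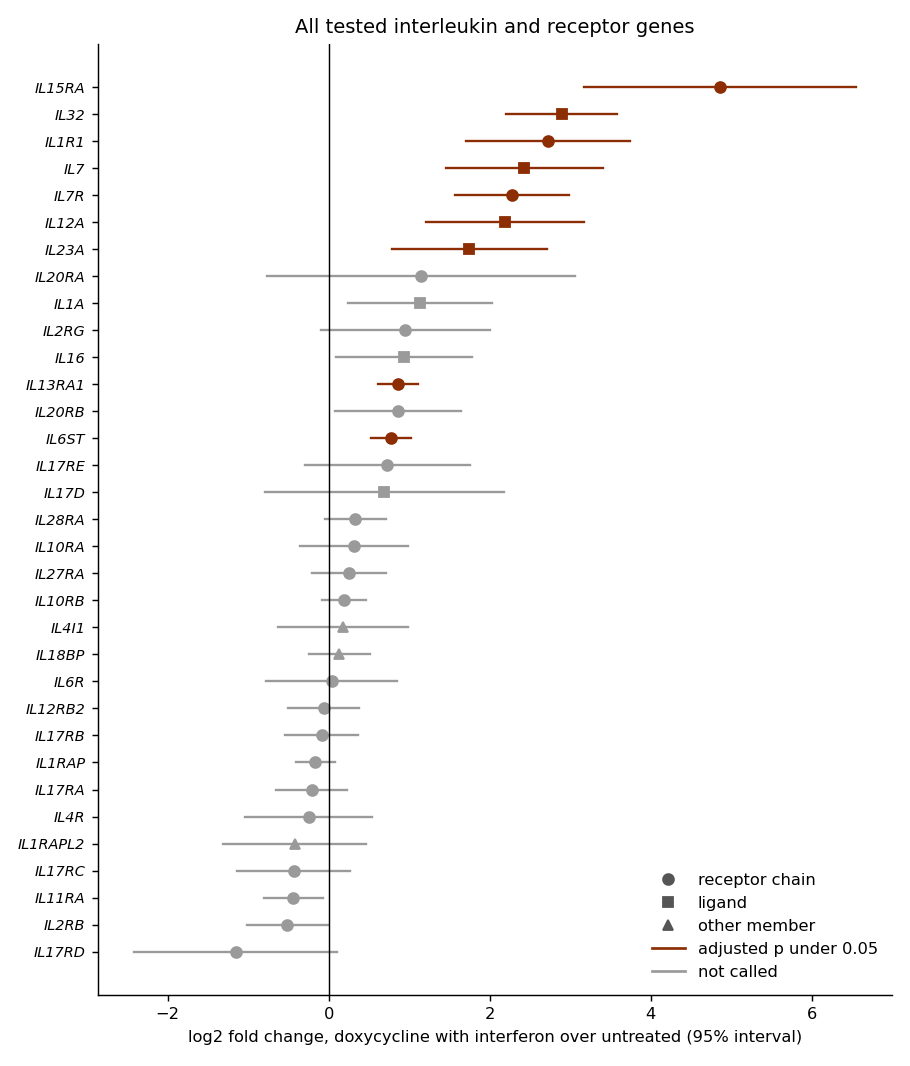
Log2 fold change of doxycycline with interferon over untreated cells for the 33 tested genes, with 95% intervals from the fit. Circles are receptor chains, squares ligands and triangles other genes, and dark symbols passed an adjusted p of 0.05; the 9 called genes run between 0.77 for IL6ST and 4.86 for IL15RA.

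Among the ligands, IL32, an inflammatory cytokine that induces other cytokines, was the most abundant. It had 73 and 98 reads with doxycycline and interferon, 61 and 60 with doxycycline, 21 and 18 with interferon, and 16 and 10 in untreated cells. Every library with doxycycline lay above every library without it, and no 2 groups overlapped in CPM. IL32 rose by 2.89 ± 0.31 on the log2 scale with both treatments over none (adjusted p = 0.000118), and its mean level was 9.0 ± 2.3 CPM with both and 1.21 ± 0.44 CPM in untreated cells (SD, n = 2). The 8 rows of IL32 transcripts in the table held nearly the same reads, and the 7 not chosen had between 93.8% and 98.6% of the chosen row's total.

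IL7, a growth factor for lymphocytes made by stromal cells, had 20 and 19 reads with doxycycline and interferon, 9 and 6 with doxycycline, 11 and 10 with interferon, and 3 and 5 in untreated cells. The groups did not overlap in CPM, with the combination highest and interferon alone second. The log2 fold change with both treatments over none was 2.43 ± 0.44 (adjusted p = 0.00516). IL7 overlaps ZC2HC1A on the opposite strand over 322 of its 3392 exonic bases, and whether strand was used in counting is not given, so reads of the 2 genes cannot be told apart there.

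IL12A and IL23A encode subunits that each pair with IL12B, giving interleukin 12 and interleukin 23. IL12A had 25 and 20 reads with doxycycline and interferon, 15 and 10 with doxycycline, 8 and 9 with interferon, and 3 and 8 in untreated cells. IL23A had 29 and 16, 12 and 15, 19 and 12, and 7 and 8 reads in the same order of groups. For IL12A the combined libraries lay above the other 6, while for IL23A they overlapped the libraries with interferon alone and only the untreated ones stood apart, at the bottom. With both treatments over none IL12A rose by 2.19 ± 0.45 (adjusted p = 0.00975) and IL23A by 1.75 ± 0.44 (adjusted p = 0.0247) on the log2 scale. Their shared partner IL12B had 2 reads in all 8 libraries. With both treatments over none, the IL12A and IL23A calls were the ones that depended on 1 library. The IL12A change was 1.70 (adjusted p = 0.0767) without untreated replicate 1 and 2.08 (adjusted p = 0.0771) without doxycycline with interferon replicate 1. The IL23A change was 1.70 (adjusted p = 0.113) without untreated replicate 1, 1.8 (adjusted p = 0.0958) without untreated replicate 2, and 1.32 (adjusted p = 0.219) without doxycycline with interferon replicate 1.

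Shown are promoters of genes called with both treatments over none, picked because they held an NF-kB consensus or an interferon-stimulated response element. They belong to 3 of the called ligands and to IL15RA, the receptor chain with the largest change. Being picked this way, these promoters do not show how common the motifs are. They run 250 bases before to 50 after a start site, 5′ to 3′ on the gene's strand, from RefSeq on the build GRCh38.p14, and capitals mark the motif found on either strand. In IL32 (chr16:3065153-3065452, plus strand) and IL23A (chr12:56338634-56338933, plus strand) and IL15RA (chr10:5977562-5977861, minus strand, the third of its start sites) it is the NF-kB consensus. In IL12A (chr3:159988585-159988884, plus strand) it is the interferon-stimulated response element, searched as GAAANNGAAA and read here from the other strand.
IL32: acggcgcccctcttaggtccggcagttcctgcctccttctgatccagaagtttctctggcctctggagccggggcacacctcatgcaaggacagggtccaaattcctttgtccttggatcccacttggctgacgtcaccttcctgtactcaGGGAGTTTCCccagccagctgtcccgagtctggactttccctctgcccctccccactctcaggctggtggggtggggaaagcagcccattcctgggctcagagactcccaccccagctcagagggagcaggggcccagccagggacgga
IL23A: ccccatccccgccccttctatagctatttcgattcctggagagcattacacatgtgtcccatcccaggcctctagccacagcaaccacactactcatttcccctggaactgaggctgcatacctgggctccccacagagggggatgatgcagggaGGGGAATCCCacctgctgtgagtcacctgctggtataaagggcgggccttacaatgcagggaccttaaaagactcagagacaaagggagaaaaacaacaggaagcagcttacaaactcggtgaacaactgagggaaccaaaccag
IL12A: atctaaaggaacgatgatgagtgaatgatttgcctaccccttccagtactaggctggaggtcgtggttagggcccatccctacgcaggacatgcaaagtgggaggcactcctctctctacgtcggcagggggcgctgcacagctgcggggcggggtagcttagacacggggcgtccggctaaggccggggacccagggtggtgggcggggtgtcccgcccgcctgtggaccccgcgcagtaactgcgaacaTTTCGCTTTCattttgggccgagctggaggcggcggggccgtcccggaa
IL15RA: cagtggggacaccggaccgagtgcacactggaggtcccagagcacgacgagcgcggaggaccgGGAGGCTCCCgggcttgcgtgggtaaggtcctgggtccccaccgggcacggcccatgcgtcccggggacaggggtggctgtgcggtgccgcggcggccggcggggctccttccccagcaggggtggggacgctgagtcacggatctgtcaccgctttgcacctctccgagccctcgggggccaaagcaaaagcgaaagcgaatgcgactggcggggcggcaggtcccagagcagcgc

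The NF-kB consensus began 99 bases before the start in IL32, 95 before it in IL23A and 187 before it in IL15RA, and the response element of IL12A began at position 2, with the start as position 1. Of 35116 promoters of the same length, 3.57% held the interferon-stimulated response element, 7.66% the gamma-activated site TTCNNNGAA, and 7.73% the NF-kB consensus. RefSeq promoters were at hand for 8 of the 9 called genes, 15 promoters in all, and IL7 is the one without. Among those 15, 1 held the response element, 2 held the gamma-activated site (1 of IL15RA and 1 of IL1R1) and 3 held the NF-kB consensus. The 73 interleukin-named genes with a promoter had 115 promoters in all, of which 13 held the response element, 14 the gamma-activated site and 15 the NF-kB consensus. The promoters of IL7R, IL13RA1 and IL6ST held none of these letters, which describes this window only.

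Among the receptor chains, IL15RA, which binds interleukin 15 and presents it to neighbouring cells, went furthest. It had 19 and 13 reads with doxycycline and interferon, 4 and 5 with doxycycline, 5 and 3 with interferon, and 1 and 0 in untreated cells. The combined libraries lay above all others, the 2 single treatments overlapped, and both untreated libraries lay below them. Summed over the group, 32 reads stood against 1, a ratio of 36.3 after scaling for depth, with a 95% counting interval between 6.07 and 1478, which covers counting error only. The fitted log2 fold change was 4.86 ± 0.77 (adjusted p = 0.00213), and with so few untreated reads its size depends on the fit. IL15 itself had 3 reads with doxycycline and interferon, 2 with doxycycline, 2 with interferon and 1 in untreated cells.

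IL7R, the interleukin 7 receptor chain that also serves thymic stromal lymphopoietin, had 85 and 61 reads with doxycycline and interferon, 42 and 35 with doxycycline, 23 and 42 with interferon, and 14 and 20 in untreated cells. IL1R1, the signalling receptor for interleukin 1, had 31 and 23, 14 and 14, 10 and 19, and 6 and 3 reads in the same order. Both genes were highest in the combined libraries and lowest in the untreated ones, and their 2 single-treatment groups overlapped. With both treatments over none IL7R rose by 2.27 ± 0.32 (adjusted p = 0.000969) and IL1R1 by 2.73 ± 0.46 (adjusted p = 0.00329) on the log2 scale. For interleukin 7 both the ligand and the receptor chain IL7R rose. The second chain of that receptor, IL2RG, had 11 and 8, 5 and 3, 9 and 11, and 5 and 6 reads in the same order. It was not called (0.95 ± 0.48, adjusted p = 0.206). IL2RG shares 1403 of its 2760 exonic bases with the annotated gene AL590764.2, and which gene those reads came from was not tested.

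IL6ST and IL13RA1 were abundant chains with smaller changes. IL6ST, the signal-transducing chain of the interleukin 6 family, had 3239 and 2512 reads with doxycycline and interferon, 2831 and 2419 with doxycycline, 1939 and 2098 with interferon, and 1709 and 2106 in untreated cells. IL13RA1, which pairs with IL4R to bind interleukins 13 and 4, had 822 and 675, 854 and 757, 547 and 558, and 478 and 453 reads. In CPM the groups of each gene did not overlap and ran in the same order, with the combination highest, then doxycycline, interferon and untreated. The log2 fold change with both treatments over none was 0.77 ± 0.11 for IL6ST (adjusted p = 0.00133) and 0.86 ± 0.11 for IL13RA1 (adjusted p = 0.000478). IL6ST had a mean level of 299.6 ± 37.9 CPM with both treatments and 175 ± 18.5 CPM in untreated cells, and IL13RA1 78.1 ± 6.75 and 43.0 ± 3.4 CPM (SD, n = 2). Both transcripts are poorer in GC (36.6% and 42.9%) than the median tested gene (48.8%), and the uncalled genes of this comparison had lower fold changes at higher GC (Spearman -0.447 across genes). Their part in the result was not tested. With the GC and length correction the changes were 0.57 for IL6ST and 0.68 for IL13RA1, both still called.

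**Figure D3:**
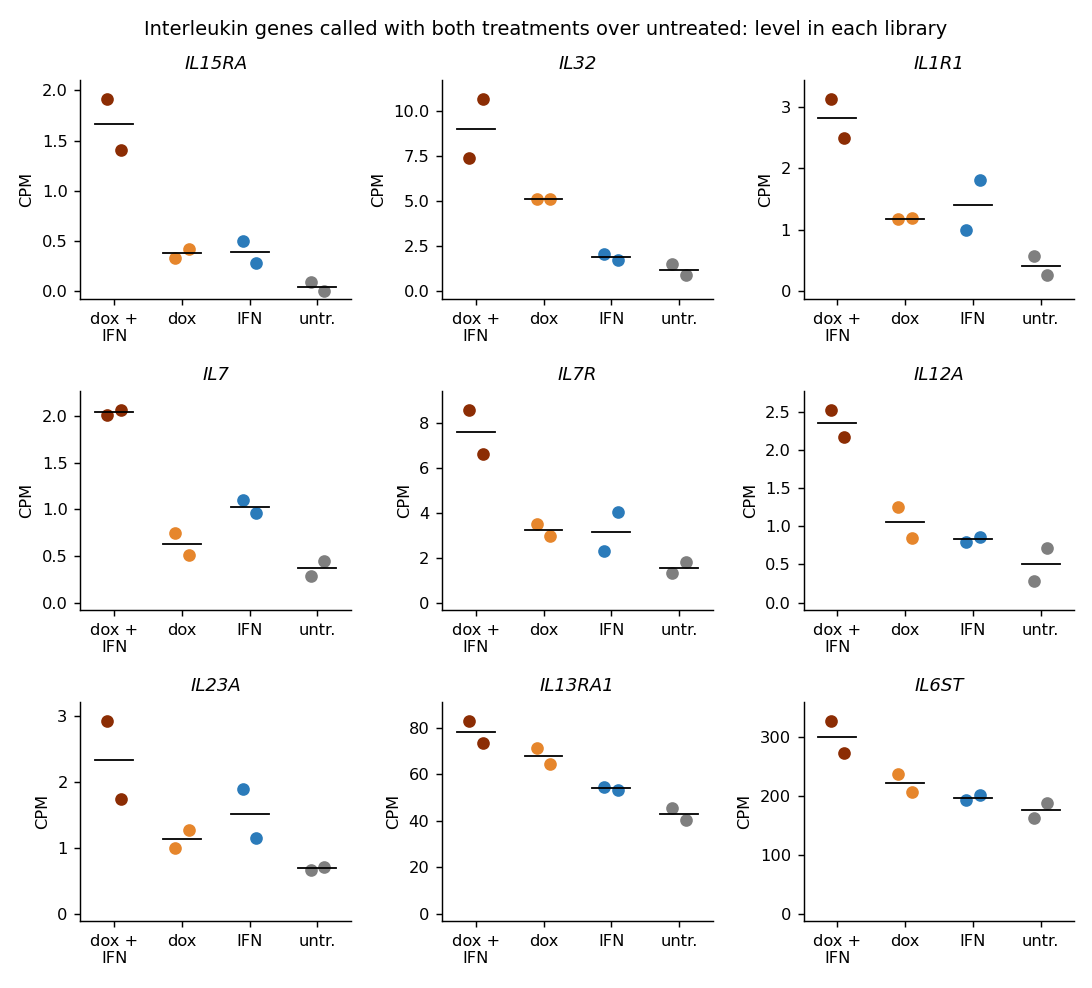
Level in each library, in CPM on a linear axis, of the 9 genes called with doxycycline and interferon (dox + IFN) over untreated cells (untr.), with doxycycline alone (dox) and interferon alone (IFN) between them. Points are libraries and lines the means of 2; IL15RA had 1.41 and 1.92 CPM in the combined libraries and 0.095 and 0 CPM in the untreated ones, while IL6ST had 326 and 273 against 162 and 188.

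Chains with IL symbols that complete these receptors were not called without a correction. IL4R, the partner of IL13RA1, had a log2 fold change of -0.25 ± 0.36 with both treatments over none (95% interval -1.04 to 0.54). IL6R, the interleukin 6 binding chain, had 0.04 ± 0.37 (-0.77 to 0.85). IL2RB, which works with IL15RA, had 60 and 69 reads with both treatments and 101 and 109 in untreated cells. Its ratio of depth-scaled reads was 0.697, with a 95% counting interval between 0.555 and 0.872, which covers counting error only. IL1RAP, the partner of IL1R1, had 5610 and 4339 reads with both treatments and 5746 and 6876 in untreated cells, a change of -0.16 ± 0.11 (-0.40 to 0.08), and its groups overlapped. IL11RA, which works with IL6ST, had 273 and 315 reads with both treatments and 499 and 407 in untreated cells, a change of -0.44 ± 0.17 (adjusted p = 0.102). With the GC and length correction both were called lower: IL1RAP at -0.30 (adjusted p = 0.00563) and IL11RA at -0.35 (adjusted p = 0.0312). The interleukin-named genes called were then 9 higher and 2 lower, against 1167 higher and 1982 lower of all 14601 tested genes. The uncorrected intervals of IL1RAP and IL11RA hold their corrected changes, and none of the intervals in this paragraph shows that a gene did not change.

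The following genes were not called in any of the 6 comparisons as fitted. IL10RB, the shared chain of the interleukin 10 relatives, had a log2 fold change of 0.19 ± 0.13 with both treatments over none (95% interval -0.08 to 0.47). It shares 1732 of its 4548 exonic bases with the annotated gene AP000295.1, and which gene those reads came from was not tested. IL27RA, the interleukin 27 receptor, had a value of 0.25 ± 0.21 (-0.21 to 0.71) and was called only with the replicate number as a block together with the GC and length correction (0.43, adjusted p = 0.029). IL28RA, the type III interferon receptor now called IFNLR1, had a log2 fold change of 0.33 ± 0.17 (-0.05 to 0.72). IL18BP, a secreted protein that binds and blocks interleukin 18, had a log2 fold change of 0.13 ± 0.17 (-0.25 to 0.52). Its row with fewest reads, 52.8% of those in the chosen row, had 0.51 ± 0.24 (adjusted p = 0.174). For interferon on top of doxycycline that row had 0.76 ± 0.24 (adjusted p = 0.132) against 0.23 ± 0.17 in the chosen row. IL18BP overlaps NUMA1 on the opposite strand over 675 of its 4323 exonic bases, and which gene those reads came from was not tested. IL10RA, the ligand-binding interleukin 10 receptor chain, had a log2 fold change of 0.31 ± 0.30 (-0.35 to 0.98). IL1A, an interleukin 1 that cells release on damage, had 21 and 16 reads with both treatments, 14 and 14 with doxycycline, 7 and 6 with interferon and 6 and 13 in untreated cells. Its combined libraries lay above the others and its log2 fold change was 1.13 ± 0.40 (adjusted p = 0.0859). Of the 24 tested genes that were not called with both treatments over none, 14 had a log2 fold change above 0 and 10 below it.

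Doxycycline alone against untreated cells raised IL32 and IL13RA1, 2 of 33 tested genes, against 0.815% of all tested genes called and 0.719% called higher, and 0 fell. The change was 2.08 ± 0.33 for IL32 (adjusted p = 0.0119) and 0.66 ± 0.11 for IL13RA1 (adjusted p = 0.0187) on the log2 scale. Their mean levels were 5.09 ± 0.0075 and 67.8 ± 4.9 CPM with doxycycline, and 1.21 ± 0.44 and 43.0 ± 3.4 CPM in untreated cells (SD, n = 2). The median log2 fold change was 0.30 over the 33 genes and 0.002 over all genes tested. Without untreated replicate 2 or doxycycline replicate 1 neither call held, and without interferon replicate 1 or 2, which share the estimate of spread, IL32 alone was called. With the GC and length correction IL1RAP was also called, at -0.36 (adjusted p = 0.00798), against -0.28 ± 0.11 without it.

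Interferon alone against untreated cells gave 0 calls among the 33 genes in edgeR, where 2.12% of all tested genes were called. An unadjusted p under 0.05 was found for 7 of the 33 and for 1700 of all 14601 genes. DESeq2 called 0 of the interleukin-named genes and 344 of 20069 genes. It can leave genes with few reads without an adjusted p, so its 0 covers only those that had one. The largest fitted changes of the 9 genes above were 2.80 ± 1.04 for IL15RA (8 reads against 1, adjusted p = 0.3), 1.74 ± 0.52 for IL1R1 (adjusted p = 0.168), and 1.45 ± 0.49 for IL7 (adjusted p = 0.253). IL32 had a log2 fold change of 0.66 ± 0.38 (95% interval -0.18 to 1.5). IL18BP, with 146 and 166 reads with interferon and 141 and 130 in untreated cells, had a change of 0.28 ± 0.17 (-0.09 to 0.66).

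Interferon on top of doxycycline, set against doxycycline alone, raised IL7, IL7R and IL15RA, 3 of 33 genes, against 3.33% of all tested genes called and 2.42% called higher, and 0 fell. The log2 fold changes were 1.67 ± 0.39 for IL7 (adjusted p = 0.0415), 1.23 ± 0.29 for IL7R (adjusted p = 0.0418) and 2.11 ± 0.50 for IL15RA (adjusted p = 0.0478). Here 39 IL7 reads stood against 15 over the 2 libraries of each group, 146 IL7R reads against 77, and 32 IL15RA reads against 9. IL7 and IL15RA entered the test because the libraries with both treatments reached the filter, and without a filter IL15RA had an adjusted p of 0.0516. All 3 calls lay near the threshold. IL7 was lost when any of the 8 libraries was left out, IL15RA when any of the 6 treated libraries was, and IL7R when untreated replicate 2, either doxycycline library or either library with both treatments was. None of the 3 was called with DESeq2 (adjusted p = 0.400 for IL7, 0.117 for IL7R and 0.427 for IL15RA). IL6ST, at 0.44 ± 0.11 and not called (adjusted p = 0.0656), was called with DESeq2 (0.45, adjusted p = 0.0102), without a filter (0.43, adjusted p = 0.0423) and with a stricter one (0.46, adjusted p = 0.0478). With the GC and length correction IL32 (0.90), IL6ST (0.36) and IL1R1 (1.19) were also called higher and IL11RA (-0.42) lower. How long cells without interferon had doxycycline is not stated, so a difference in exposure and the effect of interferon cannot be told apart.

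Doxycycline on top of interferon, set against interferon alone, raised IL32, IL6ST and IL13RA1, 3 of 33 genes, against 1.34% of all tested genes called and 1.07% called higher, and 0 fell. The log2 fold changes were 2.23 ± 0.29 for IL32 (adjusted p = 0.00283), 0.61 ± 0.11 for IL6ST (adjusted p = 0.0273) and 0.53 ± 0.11 for IL13RA1 (adjusted p = 0.0422). The IL32 change was close to that of doxycycline without interferon, 2.08 ± 0.33, and the difference between the responses was 0.15 ± 0.47. Without interferon replicate 1 or 2 the count was 0, without doxycycline with interferon replicate 1 it was 1 (IL32), and without either doxycycline library it was 2. With the GC and length correction IL15RA (2.17) and IL7R (1.14) were also called higher and IL1RAP (-0.29) lower.

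**Figure D4:**
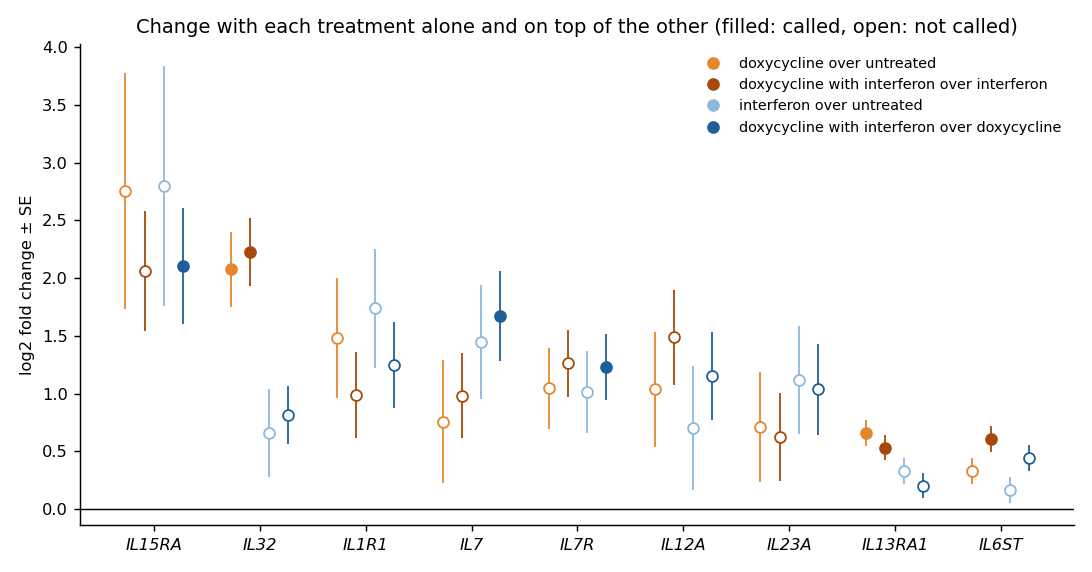
Log2 fold change ± SE of the 9 genes for doxycycline without interferon, doxycycline with interferon over interferon, interferon without doxycycline, and doxycycline with interferon over doxycycline, from left to right within each gene. Filled symbols passed an adjusted p of 0.05; IL32 is filled for both doxycycline comparisons (2.08 and 2.23), and the 3 filled interferon symbols are IL15RA, IL7 and IL7R, with doxycycline present.

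Whether interferon acted differently with doxycycline was tested by the interaction, and 0 of 33 genes passed it in edgeR, where 0.171% of all tested genes were called. An unadjusted p under 0.05 was found for 0 of the 33 and for 287 of all 14601 genes. DESeq2 called 0 of the interleukin-named genes that had an adjusted p, and 42 of 20069 genes. For IL15RA the interaction was -0.69 ± 1.07 (95% interval -3.05 to 1.66), for IL7 0.22 ± 0.70 (-1.32 to 1.77), for IL7R 0.22 ± 0.47 (-0.81 to 1.25), for IL32 0.15 ± 0.47 (-0.89 to 1.2) and for IL6ST 0.27 ± 0.16 (-0.08 to 0.63). A call with one treatment present and none without it therefore does not show that the responses differ, and the intervals of the low genes allow differences of more than 1 on the log2 scale.

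A list of 50 partner genes, receptor chains, kinases, STAT factors, adaptors and processing enzymes outside the IL symbols, had 49 members in the table and 39 tested. With both treatments over none 14 rose and 1 fell, against the 13.9% of all genes called. Among those that rose were STAT2 at 2.76 ± 0.12 and STAT5A at 2.24 ± 0.30 on the log2 scale, transcription factors below interferon and interleukin receptors, and CSF1, a macrophage growth factor, at 2.20 ± 0.30. CASP1, the protease that matures interleukins 1 beta and 18, had 126 and 101 reads with both treatments, 5 and 6 with doxycycline, 43 and 45 with interferon, and 0 and 0 in untreated cells. OSMR, which pairs with IL6ST or IL31RA, rose by 0.98 ± 0.13 (adjusted p = 0.000731), with 342 and 309 reads against 191 and 183. JAK3, the kinase that binds IL2RG, rose by 1.21 ± 0.22 (adjusted p = 0.00571), JAK2 by 0.89 ± 0.20 (adjusted p = 0.0174) and MYD88, the adaptor of interleukin 1 and 18 receptors, by 1.13 ± 0.33 (adjusted p = 0.0457). STAT3, STAT6, IFNGR1, IFNGR2 and ADAM17 rose by 0.35 to 0.62. The count of 15 was 9 without untreated replicate 1 and 10 without untreated replicate 2 or doxycycline with interferon replicate 1.

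With single treatments fewer partner genes were called. Interferon alone raised 4 of 39, among them STAT2, CASP1 and CSF1, against 2.12% of all genes called, and doxycycline alone raised 2, among them STAT2, against 0.815%. Interferon on top of doxycycline raised those 4 with STAT5A (1.31 ± 0.27) and OSMR (0.62 ± 0.13), against 3.33%. Doxycycline on top of interferon raised CASP1 (1.46 ± 0.22) and STAT5A (1.73 ± 0.29), against 1.34%, and 0 were called without interferon replicate 1 or 2.

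Several well known inflammatory interleukins had few reads. Over the 2 libraries of each group IL6 had 4 reads with doxycycline and interferon, 5 with doxycycline, 3 with interferon and 1 in untreated cells. IL1B had 7, 8, 4 and 3 reads in that order, IL18 had 4, 4, 3 and 5, and IL33 had 8, 5, 2 and 2. IL34, a second ligand of the CSF1 receptor, had 8, 7, 3 and 0 reads, and in a fit without the filter on low counts its change with both treatments over none had an adjusted p of 0.0636. A count of 3 reads in a library, a floor set in advance, corresponded to between 0.250 and 0.326 CPM, and the limit of detection was not measured. Larger differences were not called either, such as 0.42 CPM with both treatments against 0 in untreated cells for IL34.

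The remaining low genes are given by their summed reads. IL11, an interleukin 6 relative, had 8 reads with doxycycline and interferon, 18 with doxycycline, 10 with interferon and 5 in untreated cells. IL10, an inhibitory interleukin, had 8, 8, 10 and 16 reads, IL18R1, the interleukin 18 receptor chain, 14, 8, 6 and 6, IL21R, the interleukin 21 receptor, 8, 12, 5 and 4, and IL22RA1, an interleukin 22 receptor chain, 9, 8, 2 and 3. IL18R1 had 7 and 7 reads in the combined libraries and 2 to 4 in each of the other 6. The 95% counting interval of the ratio between both treatments and untreated cells ran from 0.210 to 1.41 for IL10, from 0.956 to 8.41 for IL18R1 and from 0.850 to 19.5 for IL22RA1. The antagonist IL1RN had 2 reads and the decoy receptor IL13RA2 had 3 in all 8 libraries. The 3 type III interferons had 10 reads in all, 5 of them IL29 reads in doxycycline with interferon replicate 1 and 0 in replicate 2 of that group, and the copies IL28A and IL28B are near-identical in sequence. IL3RA and IL9R, which lie in regions that the X and Y chromosomes share, had 0 reads. Of the 21 genes of these regions looked up, 20 had under 100 reads over the 8 libraries. Among them were the partner chains CSF2RA with 0 and CRLF2 with 1. The Ewing sarcoma marker CD99 had the most, 220 reads. The part of the counting of such regions in these values was not tested.

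IL4I1, a secreted enzyme that breaks down amino acids and is named for its induction by interleukin 4, had 2 transcript rows that differed. The chosen row, NM_172374, had 28 and 67 reads with doxycycline and interferon, 39 and 48 with doxycycline, 48 and 41 with interferon, and 44 and 52 in untreated cells, and was not called (0.18 ± 0.37 with both treatments over none). The other row, NM_152899, held 10.6% of that row's reads, 9 and 16 with both treatments, 2 and 4 with doxycycline, 2 and 3 with interferon, and 2 and 1 in untreated cells. For that row the ratio of depth-scaled reads with both treatments over none was 9.46, with a 95% counting interval between 2.89 and 48.9. The interval covers counting error only, and the row was picked by it. IL4I1 shares 336 of its 2563 exonic bases with NUP62, and which gene the reads of each row came from was not tested.

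**Figure D5:**
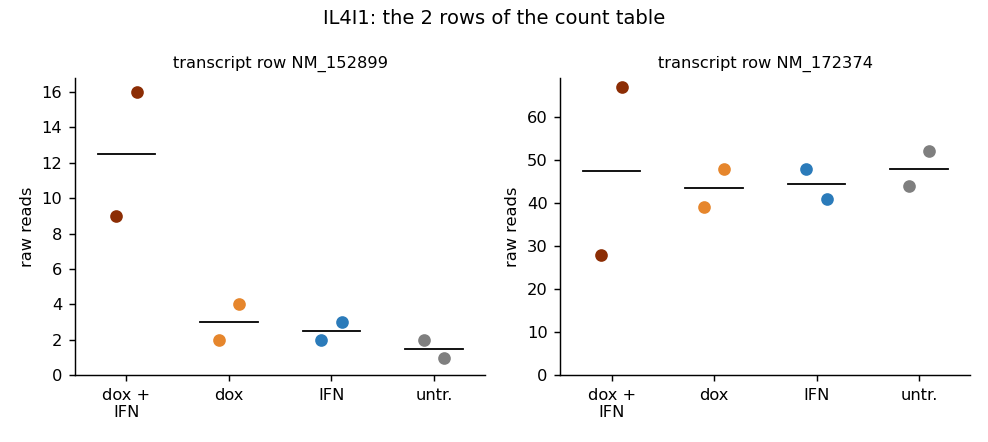
Raw reads of the 2 IL4I1 transcript rows in each library, on linear axes that start at 0 and differ in height, with lines at the means of 2. The row NM_152899 has 9 and 16 reads with doxycycline and interferon (dox + IFN) and 2 and 1 in untreated cells (untr.), while the row NM_172374 has 28 and 67 against 44 and 52.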

How the data were processed

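The deposited values are whole-number read counts per transcript in 8 libraries, without normalisation. The submitters' processing notes name CASAVA 1.8.2, edgeR and hg19; which aligner and counting method were used, and whether strand was, is not given in the sources used here. A column of the deposited table, of no stated unit, marks 1 transcript per gene. Per the labels' protocols the kit was stranded and for total RNA.

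Of 34917 rows the one with most reads was taken for each of 22257 symbols, since rows of a gene mostly hold the same reads. Counts were tested in edgeR 4.0.16 (R 4.3.3) with TMM factors (0.977 to 1.03), filterByExpr (minimum count 10), 1 mean per group over all 8 libraries, 4 residual degrees of freedom, and Benjamini-Hochberg adjustment over 14601 genes. The steps were tested on simulated data, and replicates differed by more than counting noise (chi-square per degree of freedom 4.10 to 8.57). CPM used TMM-scaled totals, and CPM per kilobase the counted transcript's length from GENCODE (GRCh38), matched by accession for 86 genes and by symbol for 3. Ratios of reads have exact 95% intervals.

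The genes and lists were chosen with earlier results of these data known. Named were genes called in any comparison, the 8 with the highest mean CPM and untested ones with at least 10 reads. A list of well known interleukins and receptors and the called partner genes were named too. Others, such as IL2RB, IL12B, IL29, IL16 and IL4I1, were chosen after their values were seen. Alternatives were other size factors, DESeq2 1.42.0, no filter or a stricter one, only the groups compared, a replicate block, a correction for GC content and length (loess, span 0.3), summed rows, a minimum of 1.2-fold, and leaving out each library. The marked rows and the rows with fewest reads were added after seeing the data. Results of 2 partner genes are not reported here.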

Additional observations from a re-analysis of the deposited data

Results flagged for a closer look

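The smaller transcript row of IL4I1, NM_152899, which entered no test because only the row with most reads was used, showed a signal in libraries with doxycycline and interferon above that in untreated cells. Scaled for depth, its reads were 9.456 times as high (25 reads against 3, 95% counting interval 2.89 to 48.9). The row was picked from those left out because its ratio was high and this interval did not hold 1. The interval covers counting error only and is no separate test of the difference. The 2 libraries of the combined group held 9 and 16 reads and the other 6 held 1 to 4.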

How the results depend on the processing

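No call reversed its direction under the alternatives run. With both treatments over none 9 genes were called, 7 to 9 without 1 library, and 4 with DESeq2, which gave no adjusted p for 54 of 75 genes with reads. With doxycycline alone the count of 2 became 1 with DESeq2, with only the groups compared, with summed rows and with a minimum of 1.2-fold, and 0 to 2 without 1 library. In DESeq2 IL32 had no adjusted p in that comparison, and IL13RA1 was still called. For interferon on top of doxycycline the count of 3 became 1 with DESeq2 (IL6ST, and none of the 3 named calls) and with only the groups compared (IL7R), 0 with a minimum of 1.2-fold, 7 with the GC and length correction, and 0 to 2 without 1 library. For doxycycline on top of interferon the count of 3 became 6 with that correction, 1 with a minimum of 1.2-fold, and 0 to 3 without 1 library, and IL7R was also called without a filter (1.26, adjusted p = 0.0299) and with only the groups compared (1.27, adjusted p = 0.0418). Interferon alone and the interaction had 0 calls under every alternative run. The cause of these moves was not tested. Over all genes the correction moved the calls with both treatments to 1167 higher and 1982 lower, against 1040 and 983 without it, and the total to 1001 against 310 with interferon, 558 against 119 with doxycycline, 1474 against 486 for interferon on top of doxycycline and 595 against 196 for doxycycline on top of interferon. Partner genes called numbered 7, 4, 10 and 8 in those 4 comparisons with the correction, against 4, 2, 6 and 2, and 8 against 15 for both treatments with a minimum of 1.2-fold.

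Replicate numbers are shared by the groups, but no label says what they mark, and the correlations of replicate differences between groups ran between -0.353 and 0.451. With a replicate block the count stayed 9 for both treatments and became 0 for interferon on top of doxycycline, where IL7, IL7R and IL15RA had adjusted p = 0.0754, 0.0876 and 0.0812. For doxycycline on top of interferon the block lost IL6ST (adjusted p = 0.0648). With the block and the GC and length correction the count was 12 for both treatments, 6 for interferon on top of doxycycline and 7 for doxycycline on top of interferon, where IL27RA was called for both treatments and for doxycycline on top of interferon (0.51, adjusted p = 0.0409). Over all 14601 genes 3403, 1662 and 782 were called in those comparisons under that setting.

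At this depth 33 of 40 ligands, 13 of 36 receptor chains and 5 of 6 antagonists, decoys or binding proteins were below the filter and not tested.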
